A study of Homo sapiens with 27 samples.

Results

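The mitochondrial genome was represented by 37 of the 55882 gene symbols in the count files, and every symbol that begins with MT- was taken as a member. The 37 genes are 13 messenger RNAs, 2 ribosomal RNAs and 22 transfer RNAs. Human mitochondrial DNA is a small circle that is transcribed from both strands into long precursors. Enzymes cut these precursors largely at the transfer RNAs that lie between the longer genes, and most of the messenger RNAs then receive a short poly(A) tail. The messenger RNAs encode subunits of the respiratory chain and of ATP synthase, which assemble with subunits made from nuclear genes, and the ribosomal RNAs form the core of the mitochondrial ribosome that translates them.

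The RNA came from U2OS, a human osteosarcoma cell line, in 3 stable lines made with lentivirus and puromycin selection. The control line, titled WT in the labels, carried the empty pLKO.1 vector according to the treatment protocol, and MMP2sh1 and MMP2sh2 carried different short hairpin RNAs against MMP2, a secreted protease that also occurs inside these cells. Each line was collected while subconfluent (day -2), at confluence (day 0) and when overconfluent (day +2), with 3 replicates each and 27 libraries in all. Poly(A) RNA was sequenced, and the study asked which genes depend on MMP2 as the cells fill the dish. No cloning step is named in the sources used here. All 3 lines share the vector backbone and the medium, and by that protocol none is untransduced.

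The libraries held 33580129 to 59374327 counts on genes. MMP2 had a mean of 232 CPM (gene counts scaled to a common library size with TMM factors, the usual CPM scale) in the control line on day -2, 325 on day 0 and 490 on day +2. The means were 40.1, 59.1 and 97.1 CPM in MMP2sh1 and 144, 158 and 278 CPM in MMP2sh2 on the same days. Of the markers of the labelled cell type, VIM (678 to 841 CPM), SPARC (1180 to 2080 CPM), COL1A1 (1000 to 1490 CPM) and RUNX2 (30.0 to 63.7 CPM) were expressed in every library. COL1A2 (0 to 0.683 CPM) and BGLAP (0 to 0.57 CPM) were at or near 0, and ALPL reached 6.98 CPM. The epithelial markers EPCAM and CDH1 reached 6.73 and 2.54 CPM, the leukocyte marker PTPRC reached 1.44 CPM, and PECAM1 was not analysed here.

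The genes lie end to end, which decides what a count can mean. Positions and sequences are those of chromosome M in GRCh37. The build named for the authors' alignment is hg19, whose mitochondrial sequence can differ from it, so positions, gene ends and matches to nuclear copies may not be those of their index. In GRCh37, 28 of the 37 genes are on the heavy-strand transcript (plus) and 9 on the light-strand transcript (minus), and MT-ND6 is the single messenger RNA among the 9. A total of 9 genes share bases with a neighbour. The following sequences show the 3 junctions between messenger RNAs that overlap, with the shared bases in capitals. The first is the opening stretch of the 46 bases that MT-ATP8 and MT-ATP6 share, read in different frames (chrM:8527-8556, plus strand). The second spans the 7 bases shared by MT-ND4L and MT-ND4 (chrM:10749-10777, plus strand). The third spans the 1 base shared by MT-ATP6 and MT-CO3 (chrM:9193-9221, plus strand).
MT-ATP8/MT-ATP6: ATGAACGAAAATCTGTTCGCTTCATTCATT
MT-ND4L/MT-ND4: aacctactccaATGCTAAaactaatcgtc
MT-ATP6/MT-CO3: cacgacaacacataAtgacccaccaatca

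Reads that touched more than 1 gene were set aside by the authors' counting, so MT-ATP8 kept 161 of its 207 bases free of overlap and MT-ND4L 290 of its 297. The genes also end in different ways. In 6 of the 13 messenger RNAs the annotated gene stops before its stop codon is complete, and poly(A) addition is known to supply the missing bases. The last 24 bases of 4 genes whose counts are followed below show both kinds of end, with the last whole or partial codon in capitals. MT-ND2 (chrM:5488-5511), MT-ND3 (chrM:10381-10404) and MT-CYB (chrM:15864-15887) are on the plus strand and end in a single T, whereas MT-ND6 (chrM:14149-14172, minus strand) ends in a complete AGG and is known as the messenger RNA that lacks a poly(A) tail.
MT-ND2: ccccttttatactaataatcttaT
MT-ND3: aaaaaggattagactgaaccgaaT
MT-CYB: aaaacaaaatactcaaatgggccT
MT-ND6: attgagattgctcgggggaatAGG

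Per unit of length, the cytochrome c oxidase subunits stood highest. The median over 27 libraries was 9002 RPKM (CPM per kilobase of gene) for MT-CO1, 8659 for MT-CO2 and 8424 for MT-CO3, which encode the catalytic core of complex IV, and the ranges of these 3 genes over the libraries overlapped. MT-ATP6, a subunit of the ATP synthase channel, had a median of 5800 RPKM and MT-ND4, of complex I, of 4110 RPKM. MT-CYB, the one mitochondrially encoded subunit of complex III, was at 2602 RPKM. The complex I messengers MT-ND3, MT-ND2, MT-ND4L and MT-ND1 lay close together at 2138, 2102, 2091 and 1948 RPKM, and their ranges overlapped. MT-ND5 was at 1021 RPKM, MT-ND6 at 612 RPKM and MT-ATP8 at 176 RPKM. Among the ribosomal RNAs, MT-RNR2 (large subunit) was at 5493 RPKM and MT-RNR1 (small subunit) at 882 RPKM. The range of MT-RNR2 over the libraries (4133 to 9178 RPKM) took in that of MT-ATP6 almost whole (4059 to 6991 RPKM), so their order depends on the library. Poly(A) selection retains RNAs according to their tails, so the order is not that of the cell. Reads that touched more than 1 gene were set aside, whereas RPKM divided by the whole gene length. Short genes such as MT-ATP8 (207 bases) can lose a larger part of their reads in this way. The order is that of the counted reads. Of all possible 150-base stretches, 10.4% in MT-RNR1, 15.7% in MT-ND2, 14.5% in MT-CO1 and 1.12% in MT-ND1 had an identical copy in the nuclear chromosomes of GRCh37, and the other 10 messenger RNAs and MT-RNR2 had none. Reads with more than 1 best position were not counted, so a part of the counts of those 4 genes may be missing.

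The transfer RNAs held almost no counts in these libraries. MT-TP, the proline transfer RNA on the light strand, held 642 to 1293 counts per library, which was 96.8% to 99.5% of all transfer RNA counts. MT-TF had 0 to 19 counts, no other transfer RNA passed 7 counts in any library, and 8 of the 22 were at 0 in all 27 libraries. A count of 0 allows a level of counted reads of up to 0.0505 to 0.0893 CPM, depending on the depth of the library. This limit covers counting error only. Transfer RNAs are short and carry no poly(A) tail, and the libraries were not made to hold them. Their genes are 59 to 75 bases long, shorter than the 150-base reads, and many lie directly beside a neighbour. Reads that touched more than 1 gene were set aside, so a low count does not show how much of this sequence was in the RNA.

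Mitochondrial genes took 4.16% to 7.15% of all gene counts, with the lowest share in replicate 1 of the control on day -2 and the highest in replicate 2 of MMP2sh1 on day +2. The control libraries held 4.16%, 5.30% and 4.96% on day -2, 4.67%, 5.42% and 4.91% on day 0, and 6.37%, 5.49% and 5.99% on day +2. In MMP2sh1 the shares were 4.24%, 6.11% and 6.55%, then 5.18%, 5.80% and 6.13%, then 7.02%, 7.15% and 6.53%. In MMP2sh2 they were 5.09%, 6.20% and 5.65%, then 5.56%, 5.63% and 5.21%, then 6.41%, 6.10% and 6.16%. The day +2 libraries stood above the day 0 libraries of their own line without overlap, whereas days -2 and 0 overlapped in each line. Days -2 and +2 overlapped in both shRNA lines and stood apart in the control. Averaged over the 3 lines, the share was 0.97 percentage points higher on day +2 than on day 0, and 0.0257 points higher on day 0 than on day -2, against a spread of 0.569 points (SD) between replicates. Averaged over the 3 days, it was 0.825 points above control in MMP2sh1 and 0.527 points in MMP2sh2. On days -2, 0 and +2 the difference was 0.825, 0.698 and 0.951 points in MMP2sh1 and 0.842, 0.464 and 0.274 points in MMP2sh2. MMP2sh1 stood above control without overlap only on day +2, and MMP2sh2 overlapped with control on every day. The spread was widest in MMP2sh1 on day -2 (5.63% ± 1.23, SD, n = 3), where replicate 1 lay well under the others. In bulk RNA a larger share of mitochondrial RNA in each cell and a larger proportion of cells rich in it cannot be told apart.

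**Figure D1:**
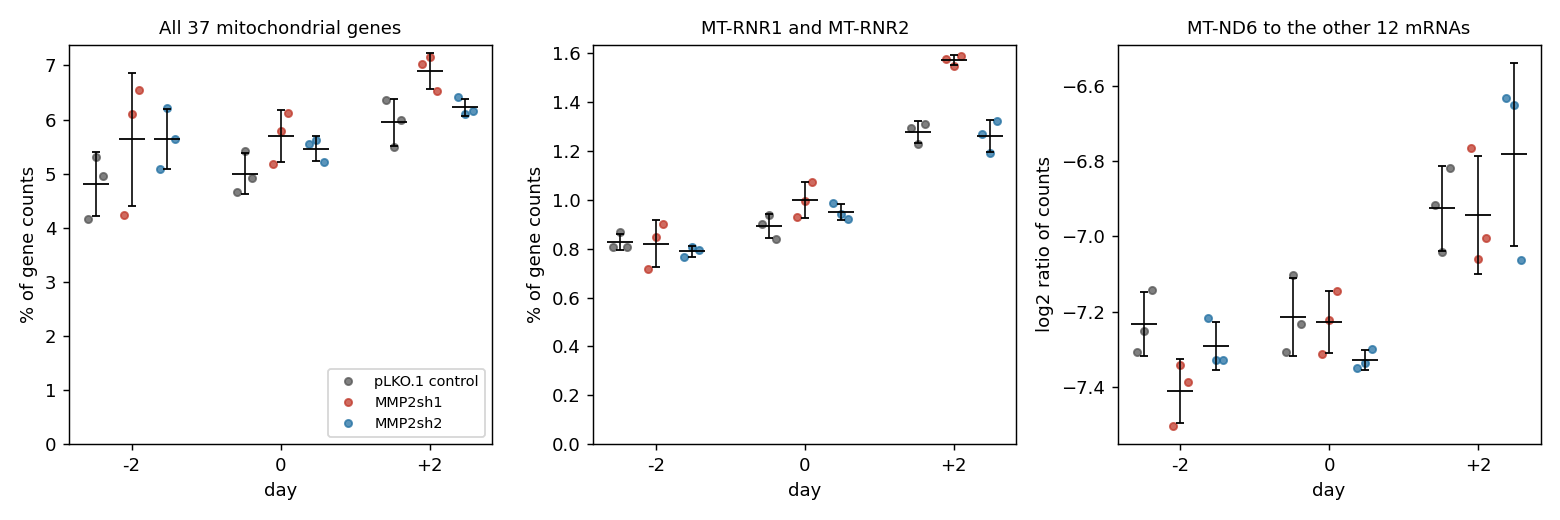
Each point is 1 library, plotted by day (x axis) and coloured by line, with the mean and SD of 3 replicates in black. The left and middle panels give the percentage of gene counts on all 37 genes and on the 2 ribosomal RNAs, and the right panel the log2 ratio of MT-ND6 counts to those of the other 12 messenger RNAs. In all 3 panels each line has its highest mean on day +2, and in the middle panel the day +2 libraries run from 1.19% to 1.59%, above every library of the earlier days.

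The ribosomal RNAs were higher on day +2 in every line. They made up 0.716% to 1.07% of gene counts in the 18 libraries of days -2 and 0, and 1.19% to 1.59% in the 9 libraries of day +2, so that no earlier library reached the lowest late one. Relative to the 13 messenger RNAs, the log2 ratio of ribosomal to messenger counts was 0.60 higher on day +2 than on day -2 when averaged over the lines, with 0.39 in the control, 0.77 in MMP2sh1 and 0.64 in MMP2sh2, beside a replicate SD of 0.12. For day 0 against day -2 it was 0.06 in the control, 0.30 in MMP2sh1 and 0.37 in MMP2sh2.

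MT-RNR2, the large-subunit ribosomal RNA, had 7476, 8155 and 7464 CPM in the control on day -2, 8080, 8340 and 7612 CPM on day 0, and 11350, 10772 and 11502 CPM on day +2. Only the last 3 libraries stood apart. Over the whole interval to day +2 it rose in the control (log2 fold change 0.55 ± 0.04, SE, adjusted p = 3.88e-11), in MMP2sh1 (0.84 ± 0.07, adjusted p = 1.67e-10) and in MMP2sh2 (0.55 ± 0.05, adjusted p = 3.27e-11). In MMP2sh1 the values were 6668, 7893 and 8634 CPM, then 8255, 8882 and 9696 CPM, then 14051, 13807 and 13849 CPM. The day +2 libraries of MMP2sh1 were the highest of all 27, and nearly equal to each other. In MMP2sh2 the values were 7151, 7706 and 7713 CPM, then 9094, 8756 and 8474 CPM, then 11010, 10333 and 11570 CPM. In that line each day lay above the one before without overlap, and the rise from day -2 to day 0 passed the test too (0.22 ± 0.04, adjusted p = 0.000214).

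MT-RNR1, the small-subunit ribosomal RNA, had 833, 866 and 836 CPM in the control on day -2, 695, 755 and 668 CPM on day 0, and 1058, 1043 and 1100 CPM on day +2. It fell to day 0 without overlap (log2 fold change -0.25 ± 0.04, adjusted p = 4.53e-05) and then rose from day 0 to day +2 (0.62 ± 0.05, adjusted p = 1.6e-12). In MMP2sh1 it had 738, 860 and 940 CPM, then 823, 957 and 1003 CPM, then 1431, 1227 and 1619 CPM. The early days overlapped (0.13 ± 0.07, adjusted p = 0.152), and the day +2 libraries stood above them (day +2 against day -2, 0.75 ± 0.08, adjusted p = 4.79e-08). In MMP2sh2 it had 776, 847 and 863 CPM, then 926, 859 and 809 CPM, then 1090, 1084 and 1163 CPM, with a rise from day -2 to day +2 of 0.43 ± 0.05 (adjusted p = 4.24e-08). The rises of both ribosomal RNAs from day 0 to day +2 and from day -2 to day +2 passed the test in all 3 lines, under each of the 6 alternative settings and in every fit that left out 1 library.

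MT-ND6, the complex I subunit read from the light strand, also rose late. In the control it had 216, 301 and 300 CPM on day -2, 230.0, 314 and 265 CPM on day 0, and 399, 309 and 395 CPM on day +2, where replicate 2 overlapped with day 0. In MMP2sh1 it had 200, 334 and 356 CPM, then 260, 315 and 353 CPM, then 487, 405 and 372 CPM. In MMP2sh2 it had 299, 353 and 324 CPM, then 282, 295 and 272 CPM, then 489, 463 and 347 CPM, where replicate 3 of day +2 overlapped with day -2. By day +2 it had risen over day -2 by a log2 fold change of 0.44 ± 0.09 in the control (adjusted p = 0.000139), 0.50 ± 0.13 in MMP2sh1 (adjusted p = 0.00209, not called by DESeq2) and 0.42 ± 0.08 in MMP2sh2 (adjusted p = 4.63e-05). Relative to the other 12 messenger RNAs the log2 ratio was 0.43 higher on day +2 than on day -2 when averaged over the lines, against a replicate SD of 0.12. Counting ignored strand, so reads of the heavy-strand precursor that cross MT-ND6 and reads of MT-ND6 itself cannot be told apart. The share of reads outside any exon was 5.69% to 7.10% on day -2 and 7.53% to 9.14% on the later days, and its part in the late values was not tested.

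**Figure D2:**
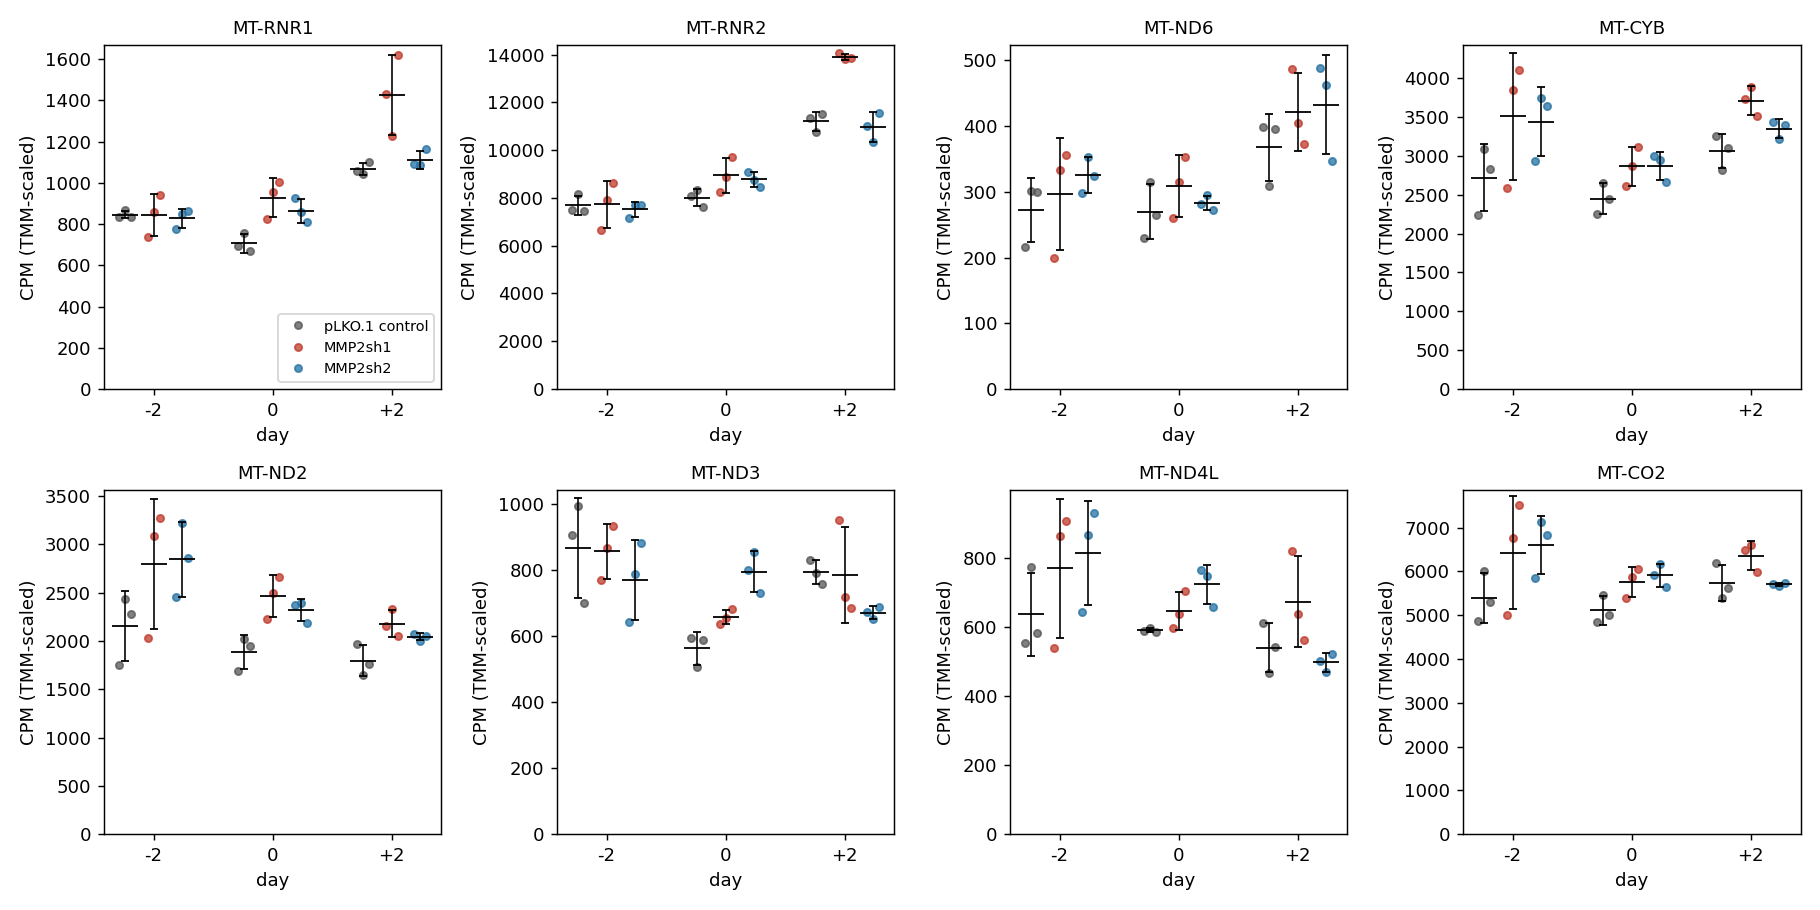
CPM of 8 mitochondrial genes in each library (y axis, from 0) by day (x axis) and line (colour), with the mean and SD of 3 replicates in black. The means of MT-RNR1, MT-RNR2 and MT-ND6 are highest on day +2 in each line, those of MT-ND2 on day -2, and MT-ND3 dips on day 0 in the control and MMP2sh1 but not in MMP2sh2.

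The other messenger RNAs did not move as 1 block over the days. From day -2 to day +2, 8 of the 16 members tested passed in the control (6 higher, 2 lower), against 56.8% of all genes tested (28.1% higher and 28.6% lower), and the median log2 fold change of the 13 messenger RNAs was 0.06 beside 0.03 for all genes. In MMP2sh1, 5 of 16 passed (3 higher, 2 lower; 54.9% of all genes, 27.3% higher and 27.7% lower) with a messenger median of 0.01 beside 0.04 for all genes. In MMP2sh2, 9 of 17 passed (3 higher, 6 lower; 54.7% of all genes, 27.7% higher and 27.1% lower) with a messenger median of -0.05 beside 0.05. The shares of members called were under or near those of all genes. Without replicate 1 of MMP2sh1 on day -2, the library with the second-lowest mitochondrial share, 12 of the members passed in MMP2sh1 instead of 5, and DESeq2 called 3 in the control and 2 in MMP2sh1.

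MT-ND2, a membrane subunit of complex I, went against the ribosomal RNAs. It had 1750, 2434 and 2282 CPM in the control on day -2 and 1970, 1650 and 1766 CPM on day +2. In MMP2sh1 it had 2029, 3092 and 3277 CPM and then 2151, 2328 and 2052 CPM, and in MMP2sh2 it had 2452, 3221 and 2863 CPM and then 2070, 2004 and 2057 CPM. The groups overlapped in the control and MMP2sh1 and stood apart in MMP2sh2. It fell by 0.26 (± 0.08, adjusted p = 0.00531), 0.37 (± 0.11, adjusted p = 0.00507) and 0.47 (± 0.06, adjusted p = 1.4e-07) on the log2 scale in the control, MMP2sh1 and MMP2sh2. In the control DESeq2 did not call the fall, nor did the fits without replicate 2 of day -2 or replicate 2 of day +2. In MMP2sh1 it was lost with DESeq2 and without replicate 3 of day -2.

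MT-ND4 and MT-ND4L, adjacent complex I subunits that share a transcript, were lower late in MMP2sh2. MT-ND4L had 643, 868 and 931 CPM on day -2, 764, 749 and 659 CPM on day 0, and 501, 470 and 522 CPM on day +2 in that line. The day +2 libraries were below all of the others, and the fall from day -2 was 0.70 on the log2 scale (± 0.08, adjusted p = 4.87e-09). MT-ND4 fell by 0.35 in MMP2sh2 (± 0.06, adjusted p = 1.41e-05) and by 0.28 in MMP2sh1 (± 0.11, adjusted p = 0.0376). The MMP2sh1 call was lost with DESeq2 and without any of replicates 2 and 3 of day -2 and 1 and 3 of day +2. In the control MT-ND4 had a log2 fold change of -0.07 ± 0.08 (adjusted p = 0.488). MT-ND4L fell by 0.23 in the control (± 0.09, adjusted p = 0.0249), a call that was lost with DESeq2, with the replicate number as a block, in 1 fit of all 27 libraries, and without replicate 2 of day -2 or either of replicates 2 and 3 of day +2, and differed by -0.20 ± 0.13 in MMP2sh1 (adjusted p = 0.212).

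MT-ND3, another complex I subunit, followed a course of its own. In the control it had 908, 994 and 701 CPM on day -2, 596, 507 and 589 CPM on day 0, and 831, 792 and 759 CPM on day +2. The day 0 libraries were below all others of the line. It fell by 0.62 to day 0 (± 0.07, adjusted p = 2.13e-07) and rose by 0.52 to day +2 (± 0.05, adjusted p = 7.98e-10). In MMP2sh1 it had 771, 867 and 934 CPM, then 639, 655 and 682 CPM, then 954, 719 and 685 CPM. The fall to day 0 there was 0.38 (± 0.06, adjusted p = 1.64e-05). In MMP2sh2 it had 643, 788 and 882 CPM, then 802, 855 and 732 CPM, then 673, 653 and 690.0 CPM, and the change to day 0 was 0.04 ± 0.07 (adjusted p = 0.695), with a fall of 0.22 from day 0 to day +2 (± 0.05, adjusted p = 0.000195). The falls to day 0 in the control and MMP2sh1 held under all 6 alternative settings and in every fit without 1 library. The difference between the lines over this interval was not tested.

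Between days -2 and 0, 5 of 16 members passed in the control, all lower, beside 35.5% of all genes (16.4% higher and 19.1% lower). In MMP2sh1 4 of 16 passed (1 higher, 3 lower), beside 32.7% of all genes (15% higher and 17.7% lower). In MMP2sh2 9 of 16 passed (1 higher, 8 lower), beside 30.3% (13.9% higher and 16.4% lower). The higher one was MT-RNR2 in both shRNA lines. Its MMP2sh1 call was lost in 1 alternative setting and in 1 fit without 1 library, and its MMP2sh2 call held in every fit. MT-CYB was lower in MMP2sh2 (-0.27 ± 0.06, adjusted p = 0.00166) and MMP2sh1 (-0.29 ± 0.10, adjusted p = 0.0298) and had -0.15 ± 0.07 in the control (adjusted p = 0.104). Each of these 2 calls was lost in 1 alternative setting, and the MMP2sh1 call also without any of replicates 2 and 3 of day -2 and 1 and 2 of day 0. MT-ND1, a complex I subunit, was lower in MMP2sh2 (-0.35 ± 0.07, adjusted p = 0.000335), with the same value of -0.18 in the control and MMP2sh1, where it did not pass. The count in the control was 10 without replicate 1 of day -2 and 3 without replicate 1 of day 0. The count in MMP2sh1 was 12 without replicate 1 of day -2 and 2 without replicate 2 of day -2 or of day 0, and in MMP2sh2 it was 5 without replicate 2 of day -2.

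From day 0 to day +2, 10 of 16 members passed in the control, all higher, beside 41.4% of all genes (21.3% higher and 20.1% lower). In MMP2sh1 10 of 17 passed (9 higher, 1 lower), beside 46% (23.1% higher and 23% lower), and in MMP2sh2 10 of 17 (7 higher, 3 lower), beside 45.5% (22.5% higher and 23% lower). MT-CYB rose by 0.34 ± 0.05, 0.38 ± 0.05 and 0.25 ± 0.04 in the control, MMP2sh1 and MMP2sh2, with adjusted p = 1.4e-06, 3.66e-07 and 4.06e-06. MT-CO3 rose by 0.36 ± 0.04, 0.39 ± 0.05 and 0.21 ± 0.03, with adjusted p = 5.39e-08, 2.29e-07 and 2.09e-06. The groups of both genes stood apart in all lines, and in MMP2sh2 the calls of both were lost in 1 fit of 27 libraries. MT-ND1 rose by 0.36 ± 0.05, 0.22 ± 0.05 and 0.20 ± 0.04, with adjusted p = 8.01e-07, 0.000439 and 0.000158, and both shRNA calls were lost in 1 fit of 27 libraries. MT-CO1 rose by 0.20 ± 0.06, 0.25 ± 0.06 and 0.15 ± 0.03, with adjusted p = 0.005, 0.000888 and 0.000615. Its calls were lost in 1 fit of 27 libraries in all lines, with DESeq2 in the control and MMP2sh1, and in the control also without replicate 1 of day 0 or of day +2. MT-CO2 rose in the control (0.19 ± 0.05) and MMP2sh1 (0.15 ± 0.04) and had -0.03 ± 0.03 in MMP2sh2 (adjusted p = 0.53), and both calls were lost in 1 fit of 27 libraries. The ATP synthase messengers passed in none of the day comparisons: MT-ATP6 lay between -0.05 and 0.10, MT-ATP8 between -0.12 and 0.14. MT-ND5 lay between -0.16 and 0.20, and its single call was a lower level on day 0 than on day -2 in MMP2sh2 (adjusted p = 0.045), which was lost with DESeq2, in 1 fit of 27 libraries, and without replicate 2 of day -2 or replicate 1 or 3 of day 0.

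MT-TP, the transfer RNA with counts, had 22.4, 24.6 and 19.9 CPM in the control on day -2, 17.04, 19.8 and 15.6 CPM on day 0, and 28.2, 23.4 and 23.4 CPM on day +2. The day 0 libraries were the lowest. It fell by 0.34 to day 0 (± 0.10, adjusted p = 0.00577) and rose by 0.53 to day +2 (± 0.10, adjusted p = 3.36e-05). The fall was lost without replicate 2 of day -2. In MMP2sh1 it fell by 0.29 to day 0 (± 0.11, adjusted p = 0.0392), a call that was lost without any of replicates 2 and 3 of day -2 and 1 and 2 of day 0. In MMP2sh2 it lay between 19.9 and 22.7 CPM on all days. MT-TP is 68 bases long, shorter than a 150-base read, and no gene is annotated after it. Counting ignored strand, so its counts can include longer RNA of either strand that runs past the gene. Their part was not tested.

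**Figure D3:**
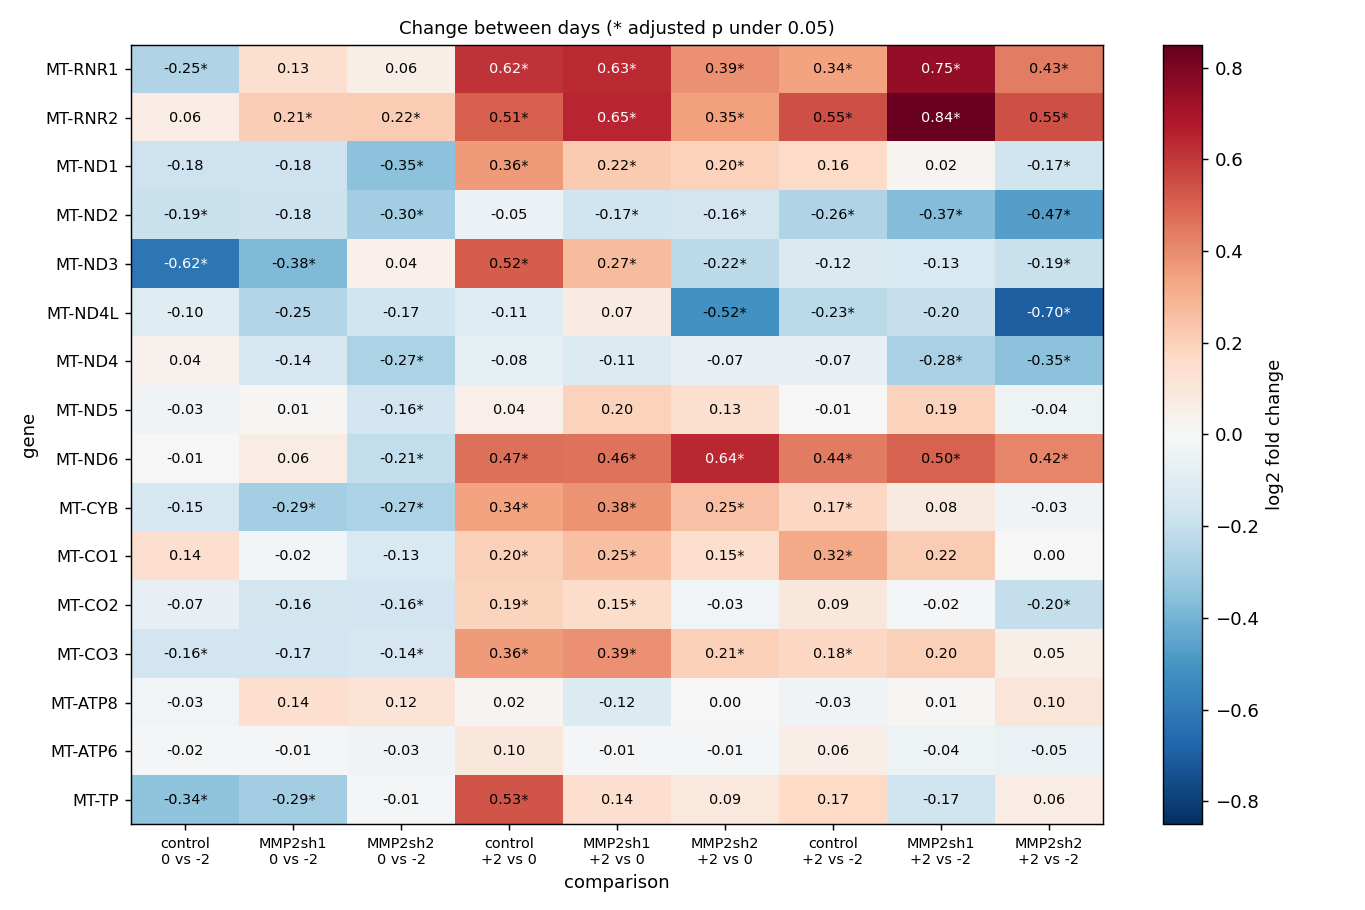
Fitted log2 fold changes of 16 mitochondrial genes (rows) between days in each line (columns), with red for higher and blue for lower on the later day and an asterisk where the adjusted p was under 0.05. MT-RNR1, MT-RNR2 and MT-ND6 are red in every column that ends on day +2, and MT-ND2 is blue in every column.

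Members that passed against control were nearly all higher in both shRNA lines. The 2 sets of comparisons share the control libraries, so they are not independent of each other. On day -2, 3 of 16 members passed in MMP2sh1 (all higher; 11.6% of all genes, 5.42% higher and 6.14% lower) and 10 of 16 in MMP2sh2 (all higher; 11% of all genes, 4.71% higher and 6.33% lower). On day 0, 12 of 16 passed in MMP2sh1 (all higher; 16.8% of all genes, 8.26% higher and 8.58% lower) and 12 of 16 in MMP2sh2 (all higher; 12.9% of all genes, 7.07% higher and 5.81% lower). On day +2, 13 of 17 passed in MMP2sh1 (12 higher, 1 lower; 14.8% of all genes, 7.68% higher and 7.11% lower) and 5 of 17 in MMP2sh2 (4 higher, 1 lower; 6.32% of all genes, 2.89% higher and 3.43% lower). The median log2 fold change of the 13 messengers was 0.26, 0.22 and 0.21 in MMP2sh1 and 0.29, 0.20 and 0.13 in MMP2sh2 on days -2, 0 and +2, and that of all genes was 0.00 in every case.

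MT-ND2 passed in all 6 of these comparisons. On day 0 it had 1689, 2017 and 1952 CPM in the control, 2231, 2494 and 2667 CPM in MMP2sh1 and 2375, 2397 and 2191 CPM in MMP2sh2. The libraries of each shRNA line were above all those of the control. The log2 fold changes against control on days -2, 0 and +2 were 0.38 ± 0.11, 0.38 ± 0.05 and 0.28 ± 0.06 in MMP2sh1 (adjusted p = 0.0266, 3.32e-07 and 0.000603) and 0.40 ± 0.08, 0.28 ± 0.04 and 0.19 ± 0.05 in MMP2sh2 (adjusted p = 0.00351, 1.31e-05 and 0.00986). On day -2 the MMP2sh1 call was lost without control replicate 1 or MMP2sh1 replicate 2 or 3, and on day +2 the MMP2sh2 call was lost without control replicate 2 or 3 or MMP2sh2 replicate 1. Each MT-ND2 call but that of MMP2sh1 on day 0 was also lost in 1 alternative setting. MT-ND4 also passed in all 6, with 0.48, 0.30 and 0.28 in MMP2sh1 and 0.45, 0.14 and 0.17 in MMP2sh2. Each MT-ND4 call was lost in 1 alternative setting, or in 2 for MMP2sh2 on days 0 and +2. Its calls were lost without MMP2sh1 replicate 2 or 3 on day -2, without control replicate 1 or MMP2sh2 replicate 1 or 2 on day 0 in MMP2sh2, and without control replicate 2 or MMP2sh2 replicate 1 on day +2 in MMP2sh2. MT-ATP6 passed in 5 of the 6, from 0.15 to 0.32, and on day -2 in MMP2sh1 its value of 0.31 ± 0.11 did not (adjusted p = 0.0698). Of its 5 calls, only that of MMP2sh1 on day 0 held in every fit. The MMP2sh2 calls on days -2 and +2 were each lost in 2 alternative settings and 4 fits without 1 library. That of MMP2sh1 on day +2 was lost in 1 setting and 2 such fits, and that of MMP2sh2 on day 0 in 1 setting. MT-ND3 rose above control on day 0 in MMP2sh2 (0.48 ± 0.05, adjusted p = 2.79e-09) and MMP2sh1 (0.22 ± 0.04, adjusted p = 0.00034) and was below it on day +2 in MMP2sh2 (-0.24 ± 0.05, adjusted p = 0.000411). The MMP2sh1 call on day 0 and the MMP2sh2 call on day +2 were each lost in 1 alternative setting.

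The ribosomal RNAs passed in neither line on day -2. On that day MT-RNR1 differed from control by 0.00 ± 0.06 in MMP2sh1 and -0.03 ± 0.05 in MMP2sh2, and MT-RNR2 by 0.01 ± 0.06 and -0.04 ± 0.05, with adjusted p from 0.705 to 0.992. On day 0 MT-RNR1 was higher in MMP2sh1 (0.39 ± 0.05, adjusted p = 2.8e-07) and in MMP2sh2 (0.28 ± 0.04, adjusted p = 2.46e-05). MT-RNR2 was higher on day 0 as well, by 0.16 ± 0.04 in MMP2sh1 (adjusted p = 0.00258) and 0.12 ± 0.03 in MMP2sh2 (adjusted p = 0.012). The MT-RNR2 calls were lost in 1 fit of 27 libraries, in MMP2sh1 also without MMP2sh1 replicate 3, and in MMP2sh2 also without control replicate 3 or MMP2sh2 replicate 1. On day +2 both were higher in MMP2sh1 (MT-RNR1 by 0.42 ± 0.06, adjusted p = 1.33e-05, and MT-RNR2 by 0.31 ± 0.04, adjusted p = 6.27e-07), and in MMP2sh2 they differed by 0.06 ± 0.04 and -0.03 ± 0.04 (adjusted p = 0.554 and 0.747). MT-TP was lower in MMP2sh1 on day +2 (-0.28 ± 0.09, adjusted p = 0.0415). This call was lost in 2 alternative settings and without control replicate 1 or 2 or MMP2sh1 replicate 3.

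Single libraries and the choice of fit moved these counts. On day -2 the count in MMP2sh1 was 1 without control replicate 1, 5 without control replicate 2, 12 without MMP2sh1 replicate 1, and 0 without MMP2sh1 replicate 2 or 3. In MMP2sh2 it was 3 without control replicate 1 or MMP2sh2 replicate 2, and DESeq2 called 0 members in either line on that day. On day +2 it was 6 in MMP2sh1 without control replicate 2, and in MMP2sh2 it was 2 without control replicate 2 or 3 and 1 without MMP2sh2 replicate 1. In 1 fit of all 27 libraries, which shares its estimate of spread over all groups, 5, 4 and 2 members passed in MMP2sh1 and 6, 2 and 0 in MMP2sh2 on days -2, 0 and +2. The calls that held in every setting and every fit without 1 library were MT-ATP6, MT-ATP8, MT-ND2 and MT-RNR1 in MMP2sh1 on day 0, MT-RNR1 and MT-RNR2 in MMP2sh1 on day +2, and MT-ND3 and MT-RNR1 in MMP2sh2 on day 0.

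**Figure D4:**
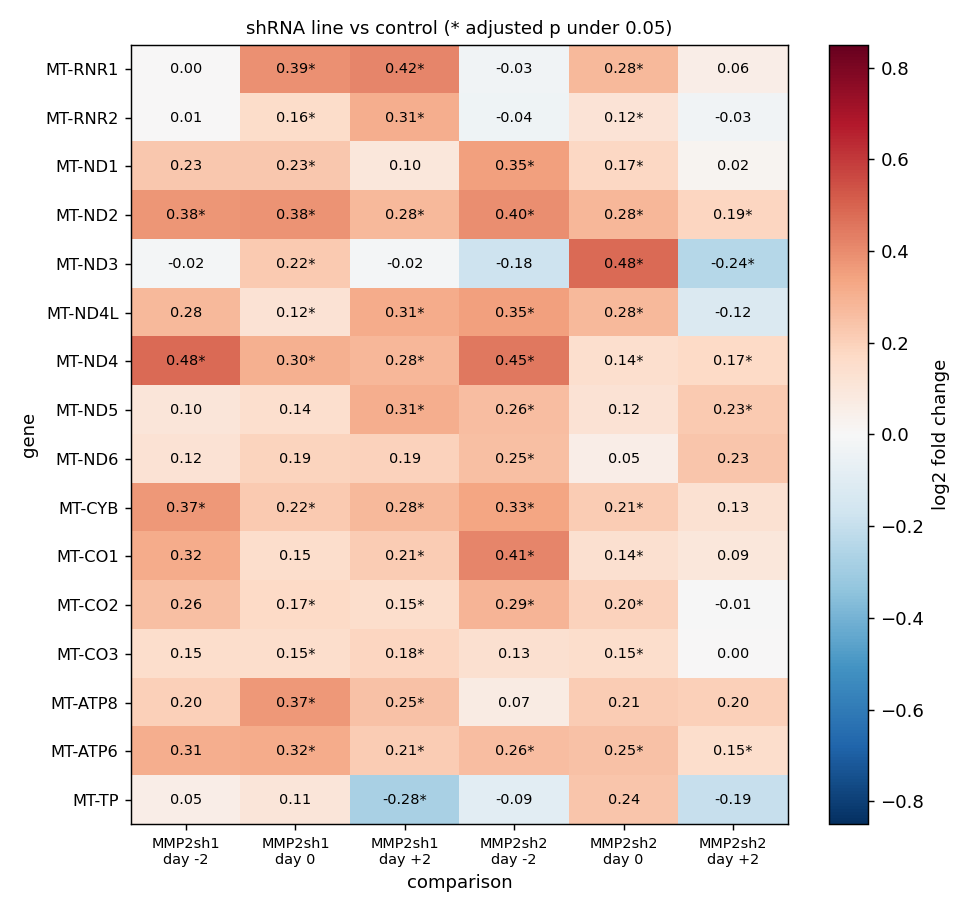
Fitted log2 fold changes of 16 mitochondrial genes (rows) in each shRNA line against control on each day (columns), with red for higher and blue for lower in the shRNA line and an asterisk where the adjusted p was under 0.05. The messengers are mostly red, the ribosomal RNAs are near 0 on day -2 in both lines, and MT-ND3 turns from 0.48 on day 0 to -0.24 on day +2 in MMP2sh2.

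Whether the change from day -2 to day +2 differed between an shRNA line and control was tested with an interaction term. In MMP2sh1, 2 of 17 members passed (7.4% of all genes, 4.52% higher and 2.88% lower), and both were ribosomal RNAs with a larger rise than in the control. In MMP2sh2, 2 of 17 passed (4.98% of all genes, 2.71% higher and 2.28% lower), MT-CO2 and MT-ND4L, both with a lower value. The count in MMP2sh1 was 1 without control replicate 2 of day -2 or of day +2. The count in MMP2sh2 ranged from 0 to 5 over the fits without 1 library, was 0 without control replicate 1 or 3 of either day, MMP2sh2 replicate 2 or 3 of day -2 or MMP2sh2 replicate 1 or 2 of day +2, was 1 without MMP2sh2 replicate 3 of day +2, and was 4 without control replicate 2 of day -2 and 5 without MMP2sh2 replicate 1 of day -2.

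Lists of nuclear genes that serve mitochondria were counted over the same days. In the control between days -2 and +2, where 28.6% of all genes were called lower and 28.1% higher, all 10 genes of a list of general mitochondrial content fell (median -0.53), among them HSPD1, a matrix chaperonin (-0.84 ± 0.05, adjusted p = 1.83e-14), and CS, the citrate synthase (-0.63 ± 0.05, adjusted p = 8.72e-12). Of 31 genes for mitochondrial RNA processing and stability, 25 fell and 0 rose (median -0.38), with ELAC2, which cuts the ends of transfer RNAs, at -0.90 ± 0.05 (adjusted p = 9.31e-14). Of 14 genes for transcription and replication of the mitochondrial genome, 7 fell and 1 rose (median -0.21). POLRMT, the mitochondrial RNA polymerase, fell by 0.52 (± 0.06, adjusted p = 8.36e-09), and C10orf2, the helicase Twinkle, by 0.76 (± 0.07, adjusted p = 5.85e-10). Of 75 tested genes for mitochondrial ribosomal proteins, the partners of the rising ribosomal RNAs, 61 fell and 3 rose (median -0.41), and of 79 nuclear respiratory chain subunits 42 fell and 3 rose (median -0.19). The largest called changes among the respiratory chain subunits were rises, in NDUFA13 (2.23 ± 0.48, adjusted p = 0.000264) and COX6B2 (1.67 ± 0.44, adjusted p = 0.00189). All genes had a median of 0.03.

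Over the same days 27.7% of all genes were called lower and 27.3% higher in MMP2sh1, and 27.1% lower and 27.7% higher in MMP2sh2. Mitochondrial ribosomal protein genes fell in 68 of 75 cases in MMP2sh1 (median -0.54) and 65 of 75 in MMP2sh2 (median -0.45), and RNA processing genes in 25 of 31 in each. All 10 genes of general content fell in both lines, and of the 14 genes for transcription and replication 8 fell and 0 rose in MMP2sh1 and 6 fell and 2 rose in MMP2sh2. Of the 79 respiratory chain subunits 53 fell and 3 rose in MMP2sh1 (median -0.38) and 58 fell and 3 rose in MMP2sh2 (median -0.31). Of 7 nuclear regulators, 2 rose and 4 fell in the control, 2 rose and 3 fell in MMP2sh1, and 2 rose and 4 fell in MMP2sh2. PPARGC1A, a coactivator known for driving mitochondrial biogenesis, rose in the control by 2.35 (± 0.14, adjusted p = 4.48e-14), and its relatives PPARGC1B and PPRC1 fell by 1.14 (± 0.11, adjusted p = 8.78e-10) and 0.79 (± 0.05, adjusted p = 8.32e-13). On day +2 PPARGC1A was lower than control in MMP2sh1 (-0.64 ± 0.13, adjusted p = 0.000688) and MMP2sh2 (-0.83 ± 0.12, adjusted p = 2.02e-06). Against control, calls among the nuclear respiratory chain genes were mostly higher on day 0 and all lower on day +2 in both shRNA lines. On day -2 the share called higher in MMP2sh2 was near that of all genes. In MMP2sh1 11 were higher and 1 lower of 78 on day -2 (all genes, 5.42% higher and 6.14% lower), 17 higher and 1 lower of 79 on day 0 (8.26% and 8.58%), and 0 higher and 17 lower of 79 on day +2 (7.68% and 7.11%). In MMP2sh2 5 were higher and 1 lower of 79 on day -2 (4.71% and 6.33%), 31 higher and 0 lower on day 0 (7.07% and 5.81%), and 0 higher and 14 lower on day +2 (2.89% and 3.43%). Of the 13 mitochondrial messengers, 10 were higher and 0 lower in MMP2sh1 and 4 higher and 1 lower in MMP2sh2 on day +2.

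**Figure D5:**
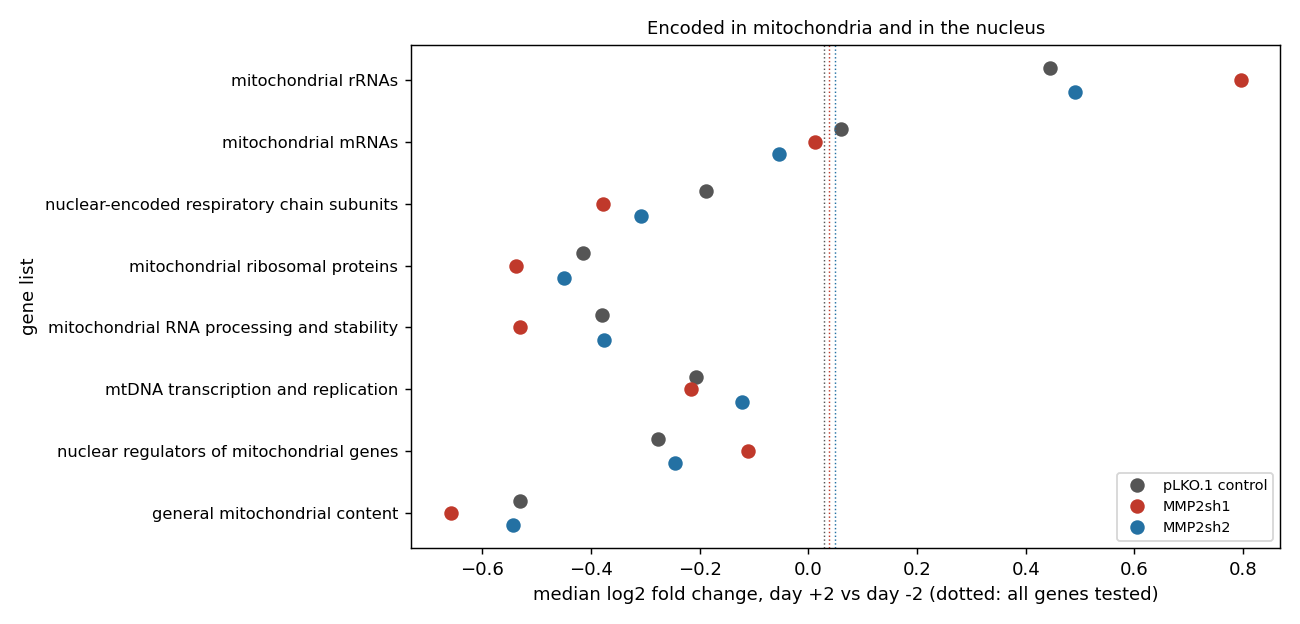
Median log2 fold change from day -2 to day +2 (x axis) for the mitochondrial ribosomal and messenger RNAs and 6 lists of nuclear genes (y axis), with 1 point per line and dotted lines at the median of all genes tested. The ribosomal RNAs lie at 0.44 to 0.80, the mitochondrial messengers near 0, and all 6 nuclear lists below 0 in every line.

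Nuclear copies of mitochondrial genes were counted as well. Of 188 such symbols, 10 to 14 had enough counts to be tested, and the highest was MTATP6P1 (69.9 to 268 CPM), which is a pseudogene of MT-ATP6. In GRCh37 the longest copy aligned in 1 piece is on chromosome 5 (chr5:99381642-99390441) and matches the mitochondrial genome at 88.9% of 8802 aligned positions. The next longest, on chromosome 1 (chr1:564461-570304), matches it at 98.5% of 5846 aligned positions. MTATP6P1 fell in MMP2sh2 from day -2 to day 0 (-1.33 ± 0.12, adjusted p = 4.77e-09), and 8 of the 10 copies tested were called lower (median -1.54), beside 16.4% of all genes. MTATP6P1 rose from day 0 to day +2 (0.60 ± 0.07, adjusted p = 2.32e-08). MT-ATP6 itself had log2 fold changes of -0.03 ± 0.06 and -0.01 ± 0.03 over the same intervals in that line (adjusted p = 0.748 and 0.852). MTRNR2L12, which resembles MT-RNR2, fell by 1.68 to day 0 in MMP2sh2 (± 0.16, adjusted p = 2.57e-08), where MT-RNR2 rose. On day +2 MTRNR2L12 was above control in MMP2sh1 (0.97 ± 0.15, adjusted p = 2.71e-05) and MMP2sh2 (0.73 ± 0.16, adjusted p = 0.00161). How many reads of these copies came from mitochondrial RNA was not tested.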

How the data were processed

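Files of 27 poly(A) RNA libraries were used. Per the labels, reads were trimmed with Trim Galore 0.6.0, aligned to hg19 with STAR 2.7.3a and counted with HTSeq 2.0.0, and the authors deposited raw counts per gene symbol. The counting ignored strand and discarded reads over more than 1 gene and reads aligned to more than 1 place. The 5 summary lines of each file, 16.8% to 19.1% of its total, were left out of library sizes. Coordinates and sequences were read from GRCh37 with GENCODE annotation; the mitochondrial sequence in the authors' index is not given in the sources used here.

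Genes were fitted in edgeR 4.0.16 (R 4.3.3) by the quasi-likelihood test on the 6 libraries of each comparison (12 for the interactions), with TMM scaling, filterByExpr (minimum count 10, minimum total 15) and Benjamini-Hochberg adjustment over all genes tested, and called at an adjusted p under 0.05. No list was tested as a set. The filter removed 20 or 21 members per comparison, all of them transfer RNAs. Shares and ratios are means over days or lines with no test. Alternatives were DESeq2 1.42.0, median-of-ratios scaling, scaling from nuclear genes, no filter, a replicate block, 1 fit of 27 libraries and omission of each library. The scripts were tested on simulated data. Replicates differed beyond counting noise in all 27 pairs (chi-square per degree of freedom 4.74 to 24.6); the study calls them independent biological replicates. All 13 messenger and 2 ribosomal RNAs were described, and transfer RNAs where called. Genes named from a nuclear list were among the up to 3 called with the largest change, and not all of these are named. The members and lists were chosen with earlier results of these data known.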

Additional observations from a re-analysis of the deposited data

Results flagged for a closer look

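Both ribosomal RNAs changed more from day -2 to day +2 in MMP2sh1 than in the control. The log2 difference of the changes was 0.42 ± 0.10 (SE) for MT-RNR1 (adjusted p = 0.0102) and 0.30 ± 0.08 for MT-RNR2 (adjusted p = 0.0214). The MT-RNR1 difference was called in 5 of 6 alternative settings, DESeq2 being the exception, and in all 12 fits that left out 1 library. The MT-RNR2 difference was called in all 6 settings and in 10 of 12 such fits, and was lost without control replicate 2 of day -2 or of day +2.

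In MMP2sh2 the changes of MT-CO2 and MT-ND4L from day -2 to day +2 were below those of the control, by -0.30 ± 0.08 for MT-CO2 (adjusted p = 0.0317) and -0.47 ± 0.14 for MT-ND4L (adjusted p = 0.0359). These differences were called in 4 of 6 settings each, not by DESeq2 or in 1 fit of 27 libraries, and in 3 and 4 of the 12 fits that left out 1 library.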

How the results depend on the processing

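In the main fits 16 or 17 members were tested. Without a filter on low counts, every member with a count in the compared libraries was tested. Counts of members called are given here by setting. With DESeq2 they were 0 in MMP2sh1 and 0 in MMP2sh2 against control on day -2, 2 in MMP2sh2 on day +2, 3 in the control from day -2 to day 0 and 3 to day +2, 2 in MMP2sh1 over each of these intervals, and 1 and 0 for the MMP2sh1 and MMP2sh2 interactions. Without a filter on low counts they were 8 in MMP2sh1 against control on day -2, 8 in the control and 11 in MMP2sh1 from day -2 to day 0, 9 in MMP2sh1 to day +2, and 7 for the MMP2sh2 interaction. In 1 fit of 27 libraries they were 5, 4 and 2 in MMP2sh1 and 6, 2 and 0 in MMP2sh2 against control on days -2, 0 and +2, 3 in the control and 4 in MMP2sh2 from day -2 to day 0, 6 in MMP2sh1 and 5 in MMP2sh2 from day 0 to day +2, and 0 for the MMP2sh2 interaction. The causes were not tested.

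Over the 22107 genes used for scaling, same-numbered replicates correlated between -0.0934 and 0.0971 in their deviations from the group means. This does not show whether the mitochondrial genes share an effect of the replicate number, which was not tested. Replicate 1 had the lowest mitochondrial share on day -2 in each line (4.16%, 4.24% and 5.09%). On day 0 it did so in the control and MMP2sh1, and on day +2 in no line. With the replicate block the count was 8 in MMP2sh1 against control on day -2, 8 in the control and 10 in MMP2sh1 from day -2 to day 0, and within 1.5 times in the other comparisons. Neither median-of-ratios scaling nor scaling from nuclear genes moved a count by over 1.5 times.

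Leaving out 1 library gave 0 to 12, 9 to 15 and 6 to 13 calls in MMP2sh1 and 3 to 11, 8 to 16 and 1 to 7 in MMP2sh2 against control on days -2, 0 and +2. From day -2 to day 0 it gave 3 to 10 in the control, 2 to 12 in MMP2sh1 and 5 to 11 in MMP2sh2. To day +2 it gave 6 to 11, 4 to 12 and 7 to 11 from day -2, and 10 to 12, 10 to 12 and 10 to 11 from day 0. The interactions gave 1 to 3 and 0 to 5. The share difference ranged from 0.672 to 1.06 points in MMP2sh1 and 0.419 to 0.619 in MMP2sh2 against control, from -0.207 to 0.178 for day 0 against day -2, and from 0.764 to 1.15 for day +2 against day -2. Over 272 gene results and 3456 recomputed values, 2 reversed, 264 lost a call and 163 gained one, and 181 values of uncalled results changed sign. Both reversals were in MMP2sh1 from day -2 to day +2 without replicate 1 of day -2, where MT-ATP8 was at -0.22 and MT-ND1 at -0.18, against 0.01 and 0.02 with all libraries; both reached 0.17 without replicate 3 of that day. Of 129 calls, 44 held in every fit. Of the members only transfer RNAs, 20 or 21 per comparison, had too few counts to be tested.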
